A study of Cynara cardunculus with 12 samples.

Results

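Line L24 of transgenic cardoon callus was compared with wild-type (WT) callus across all genes, with 3 samples of each group, 6 of the 12 samples in the series. The samples were taken by their labels, and no measured value entered that choice. WT callus was a friable, undifferentiated tissue from leaves of the cardoon (Cynara cardunculus var. altilis) genotype "Spagnolo", grown in the dark on a medium with auxin (2,4-D) and cytokinin (kinetin). L24 was 1 line raised from such callus by infection with Agrobacterium strain AGL1. It carries p35S::AtMYB4, in which the constitutive CaMV 35S promoter drives the Arabidopsis gene AtMYB4. The line was kept on phosphinothricin (PPT), the agent of selection, and on cefotaxime, an antibiotic against the bacterium. It was sub-cultured more often than WT and was taken at an earlier round of sub-culture. No line with an empty vector is named in the sources, so that the transgene cannot be told apart from transformation, selection and culture age. The 3 extractions of a group came from a single callus line or WT, and p-values measure only the spread between these samples, which may be technical. The lines L1 (strain AGL1) and L18 (strain EHA105) carry the same construct and were used to see where L24 differed from them.

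AtMYB4 is an R2R3-MYB factor that represses genes of the phenylpropanoid pathway in Arabidopsis. The pathway starts with phenylalanine ammonia-lyase (PAL), which makes cinnamic acid from phenylalanine, an end product of the shikimate pathway. Cinnamate 4-hydroxylase (C4H), 4-coumarate-CoA ligase (4CL), hydroxycinnamoyl transferase (HCT) and caffeoyl-CoA O-methyltransferase (CCoAOMT) then lead to lignin precursors and chlorogenic acids, and class III peroxidases couple the precursors in the cell wall. Callus is a dividing tissue with mostly thin primary walls, kept undifferentiated by auxin and cytokinin. The transgene is not among the cardoon genes counted and was not analysed here.

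The count table holds reads counted on the annotated exons of 26505 genes of the genome CcrdV1. Totals ran from 13807280 to 15515203 reads in WT and from 12505275 to 14895765 in L24. Values given below as normalized counts are read counts divided by library sizes that edgeR's TMM method had adjusted. The detection floor was set at 3 counts, which is between 2.96 and 3.68 normalized counts here and covers counting error only, and a gene was at the floor of a group when none of its replicates exceeded it. The expression of 9 chlorophyll a-b binding protein genes, a sign of green tissue, summed to between 625 and 879 normalized counts in WT and between 610.3 and 888 in L24, while 5 of the 9 fell and 2 rose (median -1.32 on the log2 scale), with none at 0 in WT and 2 at 0 in L24 replicate 2. Replicate 1 of L24, like WT replicate 1, L1 replicate 3 and L18 replicate 2, had the lowest TMM factor of its group and the lowest value of its group on the fourth principal component (6.74% of the variance).

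Of the 20024 genes tested, 7998 (39.9%) were differentially expressed genes (DEGs) in L24, with 0.05 as the upper limit of the adjusted p (Benjamini-Hochberg) in edgeR's quasi-likelihood F test. Upregulated genes numbered 3858 (19.3%) and downregulated genes 4140 (20.7%). DEGs had a median absolute log2 fold change of 1.03, and 2201 upregulated and 1939 downregulated genes changed by more than 1 on the log2 scale. Beyond 4 on that scale were 297 upregulated and 232 downregulated genes. In 3703 of the upregulated genes all L24 replicates lay above all WT replicates, and in 3987 of the downregulated genes all lay below, beside 25.0% and 25.8% of all genes tested. The median log2 fold change of all genes was 0.01. On FPKM values, which are scaled by gene length and library total with no TMM factor, this median was 0.13 and limma called 4749 genes up and 3202 down. Without the 4 libraries of lowest TMM factor, an alternative chosen after seeing the data, 8855 genes were called, of which 4424 rose.

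The genes are grouped below by descriptions that the study's table of DEGs gives for L1 alone. These lists were thus chosen on samples that share the WT replicates, and of the 3629 such genes tested 37.2% rose and 33.6% fell in L24. Genes under the study's Gene Ontology (GO) terms were DEGs of all lines by the study's choice. Neither kind of list is independent evidence of a direction, and counts are given as descriptions. Counts of family members are to be read beside these 37.2% and 33.6%.

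The early phenylpropanoid genes were lower in L24. Both genes described as PAL fell. Ccrd_007512 (scaffold 24, 300741 to 315153, + strand) had 21575, 21529 and 19918 normalized counts in WT and 6898, 6952 and 5690.4 in L24, with no overlap between the groups, and fell by 1.69 ± 0.23 (SE) on the log2 scale (adjusted p = 6.93e-05). The other PAL gene, Ccrd_014855 (scaffold 5442, 7052 to 11961, - strand), had 1626, 1232 and 1385 normalized counts in WT and 79.3, 98.6 and 51.9 in L24 and fell by 4.21 ± 0.32 (adjusted p = 5.43e-07). The study's C4H gene, for the cytochrome P450 that hydroxylates cinnamic acid, is Ccrd_010165 (scaffold 3042, 39949 to 42193, + strand). Its replicates stood at 25051, 21298 and 22340.2 normalized counts in WT and at 4892, 3831 and 4026 in L24, a fall by 2.43 ± 0.19 (adjusted p = 7.41e-07). In all of these genes the L24 replicates lay below the lowest WT replicate. The study reports further downregulated genes for C4H and for HCT, which were not identified here.

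Genes annotated as 4CL, which activates cinnamic acids with coenzyme A, moved both ways. Of 12 members tested, 7 fell and 5 rose, with a median log2 fold change of -1.38 beside 0.01 over all genes tested. The 4CL named by the study, Ccrd_015556 (scaffold 1578, 99676 to 104154, - strand), had 2729.9, 2786 and 2939.6 normalized counts in WT and 626, 749 and 659.9 in L24 and fell by 2.05 ± 0.18 (adjusted p = 1.77e-06). Other 4CL genes fell as well. Counts stood for Ccrd_018719 at 5991, 7616 and 8831 normalized counts in WT and 271, 359 and 254 in L24, and for Ccrd_022733 at 2756, 2674 and 2618 in WT and 117, 121 and 113 in L24. These genes fell by 4.67 ± 0.25 and 4.52 ± 0.24 (adjusted p = 3.37e-08 and 2.89e-08). The next pair was chosen after the values were seen. Ccrd_003434 had 56.4, 124 and 139 normalized counts in WT and 326, 734 and 477 in L24 and rose by 2.26 ± 0.39 (adjusted p = 0.000418). Ccrd_007170 had 110.4, 159 and 204 normalized counts in WT and 385, 1149.7 and 664 in L24 and rose by 2.21 ± 0.37 (adjusted p = 0.000315). In both of these rising genes L24 replicate 1 was the lowest of the line and replicate 2 the highest.

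The study's gene for HCT, which transfers the coumaroyl group to shikimate or quinate, is Ccrd_015561 (scaffold 845, 71956 to 73882, + strand). It had 3387, 3062 and 3485 normalized counts in WT and 127, 98.6 and 104 in L24 and fell by 4.91 ± 0.30 (adjusted p = 8.27e-08). Of 18 acyltransferases with the same chloramphenicol acetyltransferase-like domain, 7 fell, 4 rose and 7 were not called. CCoAOMT, which methylates the caffeoyl intermediate, was read from 3 genes. Ccrd_019031 (scaffold 364, 132763 to 150464, + strand) had 37534, 33841 and 35225 normalized counts in WT and 4227, 4962 and 4949 in L24 and fell by 2.91 ± 0.21 (adjusted p = 2.75e-07). Ccrd_012615 had 729.7, 704 and 853 normalized counts in WT and 289.8, 451 and 351 in L24 and fell by 1.07 ± 0.20 (adjusted p = 0.000849). Ccrd_004659 (scaffold 2668, 74592 to 77315, + strand) had 679, 620.4 and 732 normalized counts in WT and 1.02, 2.22 and 4.24 in L24, so that it was close to the detection floor in L24, and fell by 8.03 ± 0.58 (adjusted p = 3.46e-07). The falls of these 3 genes ran from about the size of the median DEG to the near loss of counts. Ccrd_004659, like the study's C4H, 4CL and HCT genes above, was a DEG of all lines by the study's choice. CCoAOMT had no family list here, so nothing follows for other CCoAOMT genes.

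**Figure D1:**
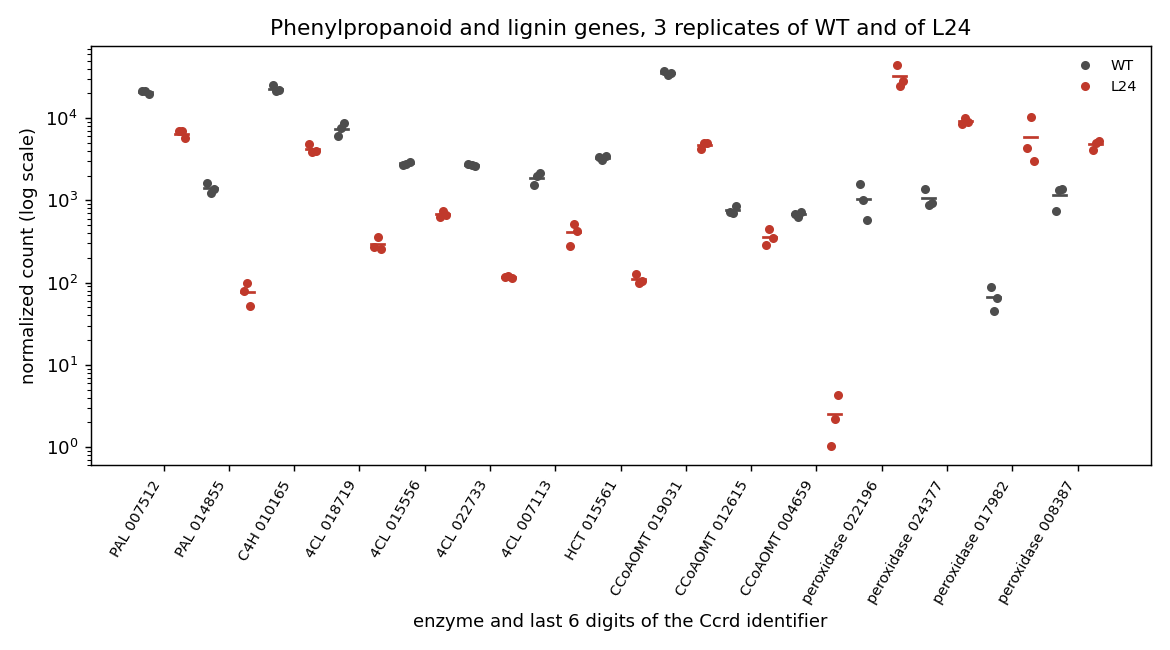
Normalized counts (log scale) of 15 phenylpropanoid and lignin genes on the horizontal axis, with 3 WT replicates in grey, 3 L24 replicates in red and a short line at each mean. The L24 replicates lie below all WT replicates in the PAL, C4H, 4CL, HCT and CCoAOMT genes shown and above all WT replicates in the 4 peroxidase genes.

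Peroxidases went mostly the other way. Of 34 genes tested, 20 rose, 6 fell and 8 were not called, and 4 of the latter averaged under 3 normalized counts in both groups. The median log2 fold change was 2.02. Ccrd_022196 stood at 1586, 999 and 573 normalized counts in WT and 44371, 24949 and 28007 in L24, with a rise of 4.95 ± 0.39 (adjusted p = 7.22e-07). Replicate 1 was the highest of the line in this gene. In Ccrd_017982, with 89.5, 45.4 and 64.2 normalized counts in WT and 4298, 10382 and 3023 in L24, it was replicate 2 that stood highest, and the rise was 6.48 ± 0.48 (adjusted p = 3.76e-07). Ccrd_024377 had 1389, 881 and 940.3 normalized counts in WT and 8546, 10037 and 9100.2 in L24 and rose by 3.11 ± 0.24 (adjusted p = 4.88e-07). A fall, chosen after the values were seen, was that of Ccrd_004165, which had 4178, 3565 and 4101 normalized counts in WT and 89.5, 47.6 and 69.9 in L24 and fell by 5.83 ± 0.41 (adjusted p = 2.72e-07).

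Genes of primary metabolism under the study's terms for downregulated genes had medians between -1.02 and -1.77 on the log2 scale in the terms given here. These terms hold only genes that the study had found lower in all lines, so the direction follows from that choice. Other genes of primary metabolism were not read as a set. The study's terms for downregulated genes held 69 genes in all, of which 67 fell in L24 and 2 did not pass the test. All 4 genes of chorismate biosynthesis fell, by a median of -1.77 on the log2 scale. Among them was Ccrd_022051, a phospho-2-dehydro-3-deoxyheptonate aldolase (the entry enzyme of the shikimate pathway), with 5812, 5981 and 6015 normalized counts in WT and 1712, 1439.9 and 1615 in L24 and a fall by 1.90 ± 0.20 (adjusted p = 5.88e-06). Ccrd_008822, the 3-phosphoshikimate 1-carboxyvinyltransferase that glyphosate inhibits, had 3751, 3512 and 3377 normalized counts in WT and 1223, 1047 and 1072 in L24 and fell by 1.67 ± 0.17 (adjusted p = 5.45e-06). The 9 glycolysis genes had a median of -1.11, the 5 genes of the pentose-phosphate shunt -1.02 and the 5 of the tricarboxylic acid cycle -1.22, with 4 of the last called. Of the last, succinate dehydrogenase (Ccrd_005119) had 7236, 5207 and 4148 normalized counts in WT and 1433, 1219 and 1133 in L24 and fell by 2.13 ± 0.19 (adjusted p = 2.24e-06). That gene lies in a stretch of neighbours with a running median of -0.82. Against this median its log2 fold change was -1.31 (adjusted p = 0.000164).

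Other genes under the study's terms for downregulated genes included lipid-transfer, iron and defence genes. The non-specific lipid-transfer protein Ccrd_018445, of a family that binds lipids in the cell wall, had 140277, 92332 and 125409 normalized counts in WT and 4275, 4038 and 4162 in L24 and fell by 4.84 ± 0.23 (adjusted p = 1.57e-08). All 8 genes of the study's lipid transport term fell, with a median of -6.64, while 4 were called under the filter of edgeR's filterByExpr. The 3 genes of iron ion homeostasis fell, with a median of -1.72. Among them ferritin (Ccrd_010194), an iron store, had 3909.6, 7666 and 8701 normalized counts in WT and 283, 640.2 and 538 in L24 and fell by 3.80 ± 0.50 (adjusted p = 5.47e-05). Chitin-binding proteins, a group known from defence against fungi, fell in 5 of 6 genes. In Ccrd_005812 the counts went from 2123, 1506 and 1922 in WT to 2.03, 1.11 and 0 in L24, at least 557-fold lower at the floor of 3 counts per library (adjusted p = 9.16e-09). Ccrd_013526 had 11441, 6464 and 7562 normalized counts in WT and 1517, 1178 and 986 in L24 and fell by 2.79 ± 0.29 (adjusted p = 6e-06). The HVA22-like protein Ccrd_001771, from a family induced by abscisic acid in barley, had 14456, 15526 and 11559.5 normalized counts in WT and 1111, 669 and 886 in L24 and fell by 3.96 ± 0.33 (adjusted p = 9.44e-07).

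Among genes of cell division, the listed kinesins mostly rose, while a short list of histone H2A or H4 genes moved both ways. Their counts are read beside the 37.2% up and 33.6% down of the listed genes. Of 11 kinesins, the motors that move along microtubules, 8 rose, none fell and 3 were not called, with a median log2 fold change of 1.64. Ccrd_004761 had 67.4, 88.8 and 86.6 normalized counts in WT and 326, 459.6 and 449 in L24 and rose by 2.34 ± 0.30 (adjusted p = 3.54e-05). Ccrd_019700 had 254, 323 and 337 normalized counts in WT and 683, 938 and 935 in L24 and rose by 1.48 ± 0.20 (adjusted p = 6.51e-05). L24 replicate 1 was the lowest of the line in all 11 kinesins. The Aurora kinase gene AUR3 (Ccrd_006023), which acts on chromosomes in mitosis, had 55.2, 55.2 and 54.6 normalized counts in WT and 229.8, 302 and 225 in L24 and rose by 2.19 ± 0.24 (adjusted p = 9.37e-06). AtHUB1 (Ccrd_000826), a histone H2B ubiquitin ligase, had 678, 767 and 693 normalized counts in WT and 826, 1501 and 1515 in L24 and rose by 0.84 ± 0.27 (adjusted p = 0.0222). The DNA polymerase gene Ccrd_013806 had 134, 145 and 173 normalized counts in WT and 214, 288 and 231 in L24 and rose by 0.69 ± 0.20 (adjusted p = 0.0117). The last 2 calls were lost in some alternative fits. AtHUB1 had 0.71 to 0.82 (adjusted p = 0.0581 to 0.0907) without WT replicate 1 or 3 or L24 replicate 2 or 3, and DNA polymerase had 0.56 (adjusted p = 0.0549) without L24 replicate 2 and 0.27 (adjusted p = 0.312) against its neighbours. KRP7-like (Ccrd_010818), an inhibitor of cyclin-dependent kinases, had 124, 107 and 148 normalized counts in WT and 6.10, 0 and 5.30 in L24 and fell by 4.98 ± 0.50 (adjusted p = 4.82e-06). A second inhibitor gene, Ccrd_012564, had 41.7, 47.3 and 68.5 normalized counts in WT and 29.5, 13.3 and 38.1 in L24, and its log2 fold change of -0.96 did not pass the test (adjusted p = 0.0901), whereas with the replicate number as a block in L24 and WT alone it was -0.99 (adjusted p = 0.0261). Of 5 genes of histones H2A or H4, 3 fell, 1 rose and 1 was not called, with a median of -1.04.

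MYB genes that the study lists as down and as up in all lines were read one by one. Of 6 in the first list 4 fell. Ccrd_007105 (AtMYB5) had 260.0, 270.2 and 269.6 normalized counts in WT and 53.9, 84.2 and 61.4 in L24 and fell by 2.00 ± 0.20 (adjusted p = 4.57e-06). Ccrd_018110 (AtMYB48) had 117, 104 and 149 in WT and no count in L24, at least 37.0-fold lower (adjusted p = 3.8e-06). Ccrd_006948 (AtMYB79) had 61.3, 56.2 and 74.9 normalized counts in WT and 1.02, 0 and 0 in L24, at least 19.3-fold lower (adjusted p = 7.36e-05), and Ccrd_013908 (AtMYB107) had 90.8, 69.0 and 105 normalized counts in WT and 50.8, 38.8 and 39.2 in L24 and fell by 1.03 ± 0.31 (adjusted p = 0.0169). Ccrd_002014 (AtMYB15) and Ccrd_001286 (AtMYB19) were low in both groups and did not pass the test, at -1.29 and -1.99 on the log2 scale (adjusted p = 0.104 and 0.113). All 5 of the second list rose. The largest change of these 5 was in Ccrd_012299 (AtMYB36), which had 28.2, 23.7 and 16.0 normalized counts in WT and 120, 447 and 242 in L24 and rose by 3.57 ± 0.42 (adjusted p = 1.98e-05). Ccrd_001632 (AtMYB62) rose by 2.28 ± 0.35 and Ccrd_009207 (AtMYB14) by 1.58 ± 0.24 (adjusted p = 0.000174 and 0.000151). Ccrd_012123 (AtMYB38) rose by 1.38 ± 0.19 and Ccrd_002100 (AtMYBS2) by 0.47 ± 0.15 (adjusted p = 6.95e-05 and 0.0213). AtMYBS2 did not pass when WT replicate 1, WT replicate 3 or L24 replicate 2 was left out (0.41 to 0.44, adjusted p = 0.0584 to 0.0673). AtMYB107 did not pass in fits that left out WT replicate 3 or replicate 2 or 3 of L24 (-0.97 to -0.89, adjusted p = 0.0553 to 0.0678).

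Other families of transcription factors moved both ways, and their counts are read beside the 37.2% up and 33.6% down of the listed genes. Of 19 WRKY factors, many of which respond to pathogens, 12 fell and 5 rose, with a median log2 fold change of -1.18. Ccrd_004878 had 839, 897 and 1003 normalized counts in WT and 261, 233 and 219 in L24 and fell by 1.94 ± 0.16 (adjusted p = 8.46e-07), while Ccrd_001141 had 451, 553 and 646 normalized counts in WT and 1292, 1300.3 and 1196 in L24 and rose by 1.20 ± 0.14 (adjusted p = 1.9e-05). Homeobox factors fell in 11 of 18 genes and rose in 5, with a median of -1.28. Ccrd_022110 had 858, 1341 and 1181 normalized counts in WT and 43.7, 58.7 and 61.4 in L24 and fell by 4.37 ± 0.36 (adjusted p = 9.85e-07). NAC factors, among which are regulators of secondary walls, rose in 9 and fell in 11 of 26 genes. Ccrd_010627 had 1871, 2334 and 1905 normalized counts in WT and 50.8, 54.3 and 81.6 in L24 and fell by 5.03 ± 0.28 (adjusted p = 3.37e-08). Ccrd_016142 had 208, 256 and 259 normalized counts in WT and 4932, 3885 and 3576 in L24 and rose by 4.096 ± 0.48 (adjusted p = 1.97e-05). AP2/ERF factors rose in 17 and fell in 6 of 39. The study's AP2-TF, Ccrd_016332, had 1246, 955 and 874 normalized counts in WT and 3984, 3214 and 3069.8 in L24 and rose by 1.74 ± 0.18 (adjusted p = 6.53e-06). Ccrd_018976 had 4400.2, 4319 and 4296 normalized counts in WT and 540.0, 456 and 575 in L24 and fell by 3.05 ± 0.31 (adjusted p = 5.64e-06). The study's MADS-TF, Ccrd_019107, had 151, 169 and 167 normalized counts in WT and 37.6, 6.65 and 33.9 in L24 and fell by 2.62 ± 0.56 (adjusted p = 0.00211), with L24 replicate 2 below the other replicates.

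**Figure D2:**
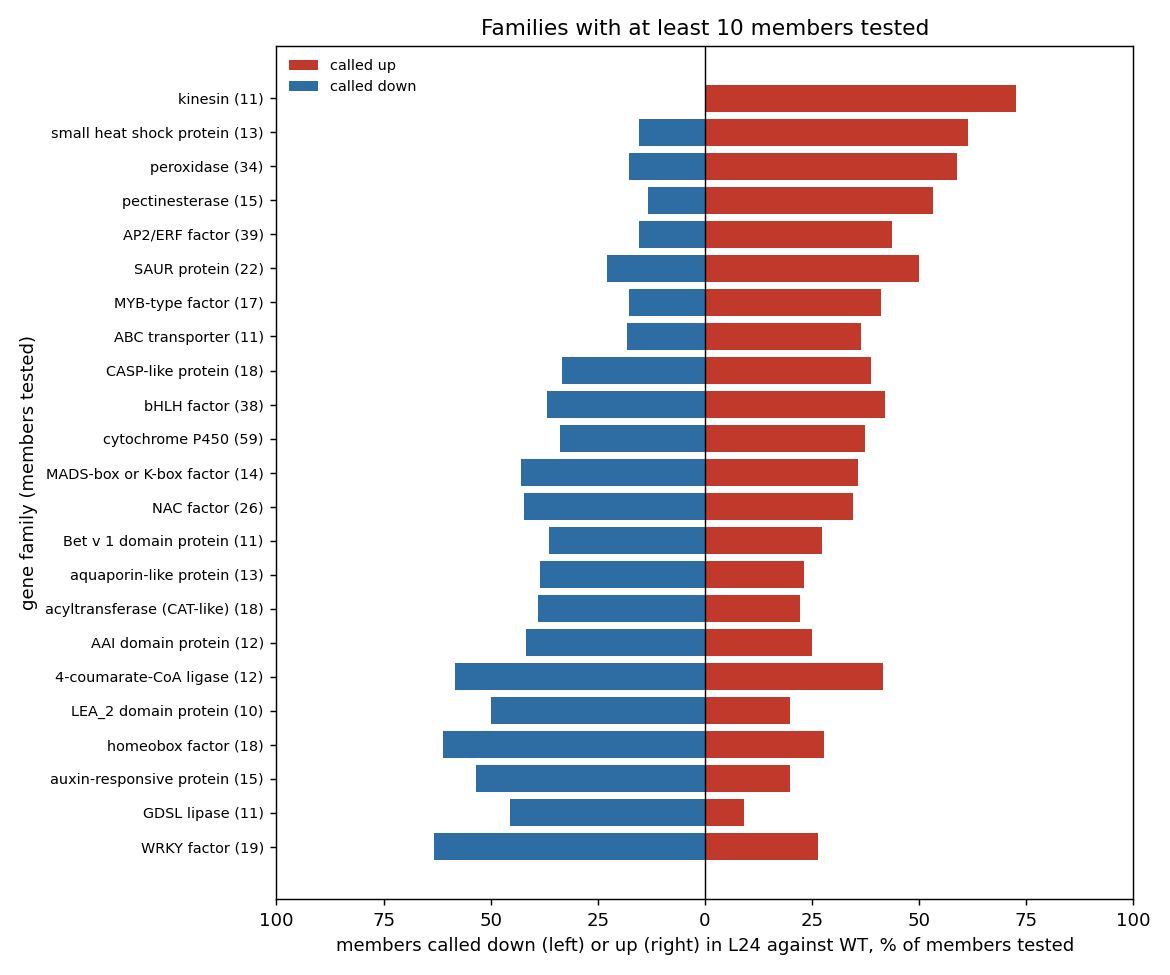
Share of members called up (red, to the right) and down (blue, to the left) in L24 against WT, in % of the members tested, for families with at least 10 members tested and listed on the vertical axis with that number. Kinesins, small heat shock proteins and peroxidases lie at the upper end, where rises prevail, and WRKY factors at the lower end, where falls prevail.

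Cell wall enzymes were mixed, and their counts are read beside the 37.2% up and 33.6% down of the listed genes. Of 15 pectinesterases, which remove methyl groups from pectin, 8 rose and 2 fell, with a median log2 fold change of 0.70. Ccrd_006765 had 1405, 806 and 961 normalized counts in WT and 10716, 13747 and 7555 in L24 and rose by 3.34 ± 0.35 (adjusted p = 7.35e-06). All 6 polygalacturonase-type glycoside hydrolases of family 28 were called, 5 of them up, with a median of 2.96. All 7 xyloglucan endotransglucosylase/hydrolase genes, whose products cut and rejoin xyloglucan, were called, 3 up and 4 down. The study's member Ccrd_000418 (scaffold 20, 472082 to 475245, - strand) had 348, 162 and 249 normalized counts in WT and 31487, 15630.2 and 27435 in L24 and rose by 6.62 ± 0.38 (adjusted p = 5.77e-08), with L24 replicate 2 the lowest of the line. Its relative Ccrd_001960 had 2124, 1517 and 1001 normalized counts in WT and 673, 100.8 and 399 in L24 and fell by 1.98 ± 0.45 (adjusted p = 0.00338), again with replicate 2 lowest. Expansins, which loosen walls, fell in 2 and rose in 2 of 7 genes, and Ccrd_003304 had 26971, 14073 and 12375 normalized counts in WT and 6546, 5969 and 4458 in L24 and fell by 1.65 ± 0.29 (adjusted p = 0.000447).

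Hormone genes moved in both directions, and their counts too are read beside the 37.2% up and 33.6% down of the listed genes. Cytokinin dehydrogenases degrade cytokinins, and all 4 tested were called. Ccrd_003971 had 4.91, 0.986 and 2.14 normalized counts in WT and 971, 844 and 801 in L24 and rose by 8.35 ± 0.35 (adjusted p = 9.16e-09), whereas Ccrd_020551 had 302, 461 and 868 normalized counts in WT and 15.3, 16.6 and 15.9 in L24 and fell by 5.08 ± 0.43 (adjusted p = 1.24e-06). The other two fell by 1.41 and 1.95 (Ccrd_020235 and Ccrd_018217, adjusted p = 0.00213 and 0.00851). Without the 4 libraries of lowest TMM factor Ccrd_018217 did not pass (-1.54, adjusted p = 0.0767). Among 15 genes described as auxin-responsive proteins 8 fell and 3 rose. Beside these 11 calls, 7 members were called without WT replicate 2, without WT replicate 3 or without L24 replicate 2, and also 7 by limma on FPKM. Ccrd_003598 had 1053, 838 and 509 normalized counts in WT and 10242, 12385 and 11587 in L24 and rose by 3.83 ± 0.35 (adjusted p = 2.29e-06). Ccrd_024984 had 323, 469 and 458 normalized counts in WT and 3652, 4863 and 7012 in L24 and rose by 3.63 ± 0.31 (adjusted p = 1.53e-06). The last, Ccrd_026278, named after its values were seen, had 3.68, 0.986 and 1.07 normalized counts in WT and 2.03, 97.5 and 3.18 in L24, and replicate 2 alone lay above all WT replicates. Its rise of 4.13 ± 1.34 (adjusted p = 0.0244) was 0.48 (adjusted p = 0.756) without L24 replicate 2, and also did not pass without WT replicate 2 or 3 (3.81 and 3.86, adjusted p = 0.0809 and 0.0718). SAUR genes, short auxin-induced transcripts, rose in 11 of 22 and fell in 5. Without L24 replicate 2 the calls among them numbered 10, beside 16. The auxin efflux carrier gene Ccrd_009752 had 57.6, 55.2 and 32.1 normalized counts in WT and 1852, 1308 and 1313 in L24 and rose by 4.95 ± 0.26 (adjusted p = 2.67e-08), and Ccrd_013799 of the same family had 633, 406 and 657 normalized counts in WT and 72.2, 31.01 and 32.8 in L24 and fell by 3.63 ± 0.56 (adjusted p = 0.000195).

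In lipid genes, 4 of 7 type 1 fatty acid desaturases rose and 1 fell. This count and those of the families below are read beside the 37.2% up and 33.6% down of the listed genes. The one that fell, Ccrd_018027, had 1409, 1984 and 1431 normalized counts in WT and 253, 379.9 and 478 in L24 and fell by 2.12 ± 0.37 (adjusted p = 0.000445). Ccrd_002830 had 49.1, 50.3 and 68.5 normalized counts in WT and 514, 562 and 325 in L24 and rose by 3.06 ± 0.50 (adjusted p = 0.000307). Lipoxygenases, which oxygenate polyunsaturated fatty acids, rose in 4 of 5 genes. Ccrd_019992 had 227, 311 and 367 normalized counts in WT and 1959, 3887 and 2719 in L24 and rose by 3.24 ± 0.29 (adjusted p = 2.05e-06), while Ccrd_026639 had 669.6, 879.7 and 747 normalized counts in WT and 26.4, 21.0 and 39.2 in L24 and fell by 4.72 ± 0.37 (adjusted p = 6.49e-07). Both allene-oxide cyclases, of the jasmonate pathway, fell, by 1.77 in Ccrd_018895 and 1.33 in Ccrd_018896 (adjusted p = 2.91e-05 and 0.000189). Small heat shock proteins rose in 8 and fell in 2 of 13 genes. Aquaporin-like proteins fell in 5 and rose in 3 of 13 genes. Ccrd_004985 had 26196, 19108 and 17398 normalized counts in WT and 4146, 1178 and 2458 in L24 and fell by 3.01 ± 0.36 (adjusted p = 2.06e-05), with replicate 2 lowest.

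Some genes were switched off or on in L24 against WT. At the detection floor in L24 but not in WT were 281 genes, of which 194 fell. At the floor in WT but not in L24 were 398 genes, of which 270 rose. L1 and L18 did not enter these counts. The largest falls under the rule for named genes were in genes with no or hardly any count in L24. The cytochrome P450 gene Ccrd_026735 had 873, 1118 and 1298 normalized counts in WT and none in L24, at least 330.0-fold lower (adjusted p = 2.89e-08). The sulfotransferase Ccrd_025377, with 648, 550.3 and 899 in WT and none in L24, was at least 210.3-fold lower (adjusted p = 3.11e-07). Ccrd_017236, of the AAI family of lipid-transfer and inhibitor proteins, had 4495, 1579 and 3616 normalized counts in WT and 0, 0 and 1.06 in L24, a drop of at least 972-fold (adjusted p = 3.4e-08). The NAC genes Ccrd_013203 and Ccrd_018165 had 654, 420.1 and 456 and 338, 268 and 304 normalized counts in WT and none in L24, and the K-box factor Ccrd_005335 had 264, 396 and 399 and none. These were at least 153, 91.3 and 106-fold lower (adjusted p = 5.74e-06, 7.77e-08 and 2e-06). The means of L1 and L18 lay below the lowest WT replicate in each of these genes. In Ccrd_017236 the fall in L18 was far smaller, with 1518, 1851 and 901 normalized counts, and the L18 replicates overlapped those of WT. Among the 10 largest falls, Ccrd_006268, given below, was higher in L18 (mean 722) than in WT (mean 212). Means in L1 and L18 were 1.38 and 9.42 for Ccrd_026735, 1.44 and 0.315 for Ccrd_025377 and 5.77 and 1423 for Ccrd_017236. They were 0.722 and 17.4 for Ccrd_013203, 7.46 and 58.8 for Ccrd_018165 and 64.0 and 9.38 for Ccrd_005335.

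In the other direction, the oligopeptide transporter Ccrd_001240 had no count in WT and 328, 332 and 232 normalized counts in L24, at least 80.9-fold higher (adjusted p = 2.97e-07). The largest bounds among the 10 named rises were in genes with no description here, Ccrd_002045 at least 260.5-fold (with 0, 0 and 1.07 normalized counts in WT and 1210.2, 739.9 and 925 in L24, adjusted p = 1.39e-08) and Ccrd_007674 at least 127-fold (none in WT and 346, 786 and 269 in L24, adjusted p = 2.31e-06). The bHLH factors Ccrd_019170 and Ccrd_018248 had no count in WT and 126, 109 and 173 and 105, 99.7 and 200.2 in L24, at least 36.9 and 36.7-fold higher (adjusted p = 8.39e-07 and 7.38e-06). The neighbouring identifiers Ccrd_020367 and Ccrd_020368 both rose. Ccrd_020367 had 2.45, 4.93 and 12.8 normalized counts in WT and 4497, 4498 and 3240.3 in L24 (a rise of 9.19 ± 0.76, adjusted p = 9.69e-07), and Ccrd_020368 had none in WT and 119, 235 and 82.6 in L24, at least 39.5-fold higher (adjusted p = 2.75e-05). L1 and L18 averaged 396 and 293 normalized counts of Ccrd_001240, 140 and 118 of Ccrd_002045 and 114 and 3.56 of Ccrd_007674. Their means were 78.9 and 2.26 for Ccrd_019170, 245 and 172 for Ccrd_020367 and 4.70 and 0.701 for Ccrd_020368.

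L24 was also set against the mean of L1 and L18 in the same fit, a contrast that holds no WT sample. It called 4671 genes (23.3%), of which 2292 were higher (11.4%) and 2379 lower (11.9%) in L24. For PAL, C4H, HCT and the 4CL of the study the difference from this mean did not pass the test. It was -0.15 ± 0.20 for PAL Ccrd_007512 and 0.57 ± 0.29 for PAL Ccrd_014855, -0.12 ± 0.16 for C4H, -0.20 ± 0.15 for 4CL and -0.53 ± 0.24 for HCT (adjusted p = 0.638, 0.178, 0.64, 0.395 and 0.139). Set against each line alone, L24 differed from it in some of these genes. PAL Ccrd_014855 was higher than in L1 by 2.05 ± 0.37 and stood at -0.91 ± 0.31 against L18 (adjusted p = 0.00156 and 0.0382). PAL Ccrd_007512 and HCT were lower than in L18, at -0.72 ± 0.23 and -0.98 ± 0.27 (adjusted p = 0.027 and 0.015), and did not pass against L1, at 0.42 ± 0.23 and -0.08 ± 0.28 (adjusted p = 0.214 and 0.887). C4H and the 4CL of the study passed against neither line. The 4CL genes Ccrd_018719 and Ccrd_022733 were lower than the mean of the other lines, with differences of -0.68 ± 0.20 and -0.84 ± 0.20 (adjusted p = 0.0241 and 0.00756). They were lower than in L18 (-1.41 ± 0.23 and -1.56 ± 0.22, adjusted p = 0.000403 and 0.000151) and did not pass against L1 (0.04 ± 0.23 and -0.13 ± 0.23, adjusted p = 0.931 and 0.747). Of the 34 peroxidases, 7 were higher and 11 lower than in the other lines, beside 17.2% and 19.0% of all genes listed in the study's table. Ccrd_022196 was higher than their mean by 1.81 ± 0.28 (adjusted p = 0.000408), and higher than in L1 and in L18 taken alone, by 2.65 ± 0.35 and 0.98 ± 0.34 (adjusted p = 0.000152 and 0.0402). AAI domain proteins were lower in 8 of 12 and higher in none, glycoside hydrolases of family 28 lower in 4 of 6. HSF factors were higher in 4 of 8 and type 1 fatty acid desaturases in 3 of 7, with none lower in either family. The 9 chlorophyll a-b binding genes summed to between 2383 and 2989 normalized counts in L1 and L18, above the sums in L24, and their part in this contrast was not tested.

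Genes named for the largest difference from the other lines, in the same direction as from WT, were chosen on these values, which are given as a description. Ccrd_008536, an SGNH hydrolase-type esterase, had 0, 4.93 and 5.35 normalized counts in WT and 585, 541 and 601 in L24, beside means of 15.4 in L1 and 9.90 in L18. Ccrd_013155, with a POT1PC domain, had 82.2, 51.3 and 111 normalized counts in WT and 2377, 1239 and 1718 in L24, beside 22.1 and 125. The bHLH factor Ccrd_018248 averaged 12.3 normalized counts in L1 and 0.946 in L18, far under its L24 values above. On the lower side, the cupredoxin Ccrd_014396 had 424, 682 and 857 normalized counts in WT and 3.05, 1.11 and 0 in L24, beside 98.4 in L1 and 3131 in L18. Ccrd_006268, an uncharacterized protein, had 222, 188 and 226 in WT and none in L24, beside 2.22 and 722. The P450 gene Ccrd_015472 had 47.8, 52.3 and 43.9 normalized counts in WT and 2.03, 1.11 and 1.06 in L24, beside 104 and 1059.6. Ccrd_014396 and Ccrd_021638 were the only genes at the floor in every L24 replicate with at least 50 normalized counts in every other sample, and Ccrd_021638 had 65.0, 58.2 and 83.4 normalized counts in WT and 1.02, 0 and 0 in L24, beside 77.6 and 119. No gene met the reverse rule.

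**Figure D3:**
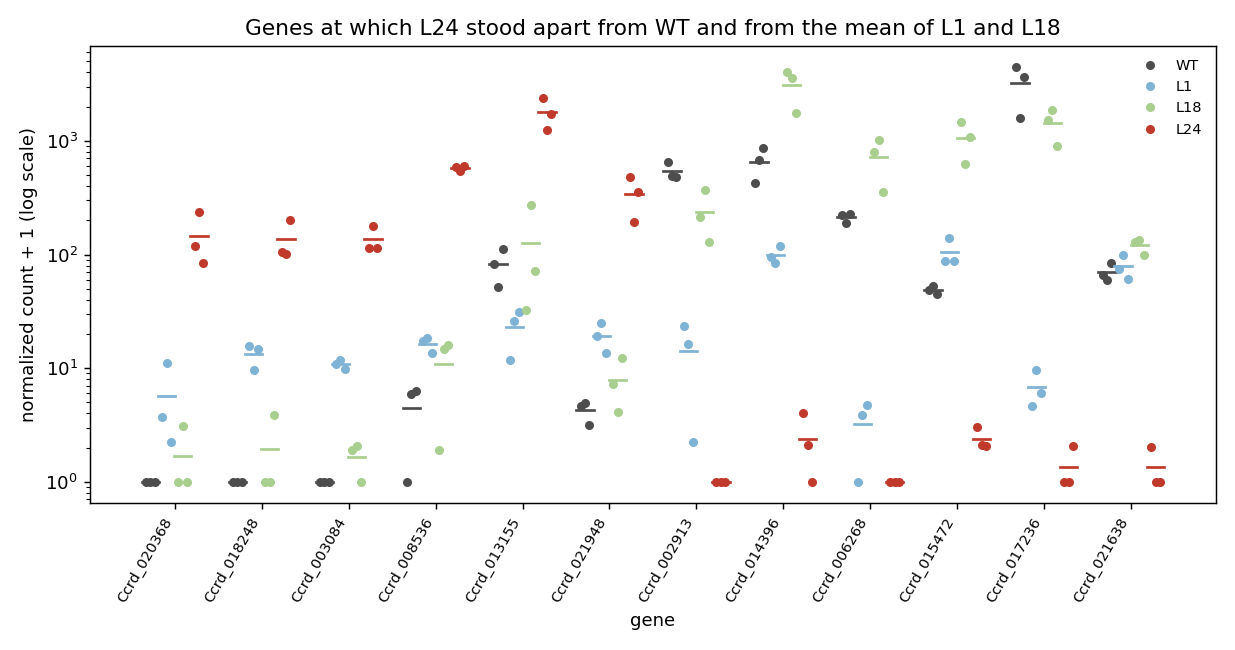
Normalized counts plus 1 (log scale) of 12 genes in 3 replicates each of WT (grey), L1 (blue), L18 (green) and L24 (red), with a line at each mean. In the 6 genes at the left the L24 replicates lie above the replicates of all other groups, and in the 6 at the right they lie below them, except that 1 L1 replicate is also at 0 in Ccrd_006268.

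Among themselves, the L24 replicates were not evenly spaced. On log2(CPM + 1) values of all tested genes they lay, as a Euclidean distance, 70.8 apart for replicates 1 and 2, 55.5 for 1 and 3 and 46.2 for 2 and 3. Their mean was 57.5, beside 51.1 in WT, 52.2 in L1 and 63.0 in L18, and L24 lay at a mean distance of 133 from WT. Of 14524 genes with at least 100 normalized counts in at least 1 L24 replicate, 922 (6.35%) differed more than 2-fold between the highest and the lowest L24 replicate. That share was 3.94% in WT, 5.13% in L1 and 10.0% in L18. A 4-fold difference was exceeded by 42 genes in L24. Replicate 3 was the middle one in 734 of the 922 genes, with the order 1, 3, 2 from high to low in 413 and 2, 3, 1 in 321. Of the 922 genes, 277 rose (30.0%), 144 fell (15.6%) and 501 were not called against WT, beside 19.3% and 20.7% of all genes tested. No single replicate can be tested against the others, and these values are descriptions.

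The 10 genes with the largest ratio had single replicates that stood apart. Ccrd_004587 had 72.2, 858 and 59.3 normalized counts in L24, with replicate 2 far above the others, and 34.3, 25.6 and 55.6 in WT. Ccrd_008838, with 33.6, 250.3 and 73.1, and the LRRNT_2 domain gene Ccrd_015348, with 13.2, 122 and 32.8, were also highest in replicate 2, and neither passed the test against WT (adjusted p = 0.718 and 0.0834). Replicate 2 was the lowest in the other 7. Ccrd_016817 had 229.8, 23.3 and 122 in L24 and 1.23, 4.93 and 9.63 in WT, and Ccrd_004143 had 147, 21.0 and 144 in L24 and 9.81, 11.8 and 11.8 in WT. Ccrd_004613 (113, 12.2 and 41.3), Ccrd_019696 (117, 15.5 and 125) and Ccrd_020042 (105, 13.3 and 59.3) followed the same pattern. Ccrd_011229 (247, 33.2 and 151) and Ccrd_011196 (186, 26.6 and 108) belong to a run of genes described below. Calls against WT changed in 8 of the 10 genes when a replicate was left out. The rise of Ccrd_004587 was 0.77 (adjusted p = 0.283) without L24 replicate 2 and 2.86 (adjusted p = 0.0512) without WT replicate 2. Ccrd_020042 fell by 1.62 ± 0.55 (adjusted p = 0.0299), with -1.62 to -1.16 (adjusted p = 0.0765 to 0.122) when WT replicate 1 or replicate 2 or 3 of L24 was left out. Ccrd_019696 fell by 1.61 ± 0.47 (adjusted p = 0.0146), with -1.44 (adjusted p = 0.0503) without WT replicate 1. The reverse held for genes that were not called. Without L24 replicate 2, Ccrd_004613 was at 1.69 (adjusted p = 0.02) and Ccrd_008838 at -1.42 (adjusted p = 0.0161), the latter at 0.18 without replicate 1. Without L24 replicate 1, Ccrd_015348 was at 2.07, Ccrd_011229 at -1.80 and Ccrd_011196 at -1.18 (adjusted p = 0.0184, 0.00715 and 0.0415). With all samples kept, Ccrd_011229 and Ccrd_015348 also passed in the likelihood ratio test, the exact test and DESeq2 (adjusted p = 0.0322 to 0.0353 and 0.0393 to 0.048), and Ccrd_011229 passed without a filter, on FPKM and against its neighbours (adjusted p = 0.0261 to 0.0469). Under the replicate block in L24 and WT alone, Ccrd_004613, Ccrd_015348 and Ccrd_011229 passed at 0.99, 1.35 and -1.37 (adjusted p = 0.038, 0.016 and 0.00487).

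**Figure D4:**
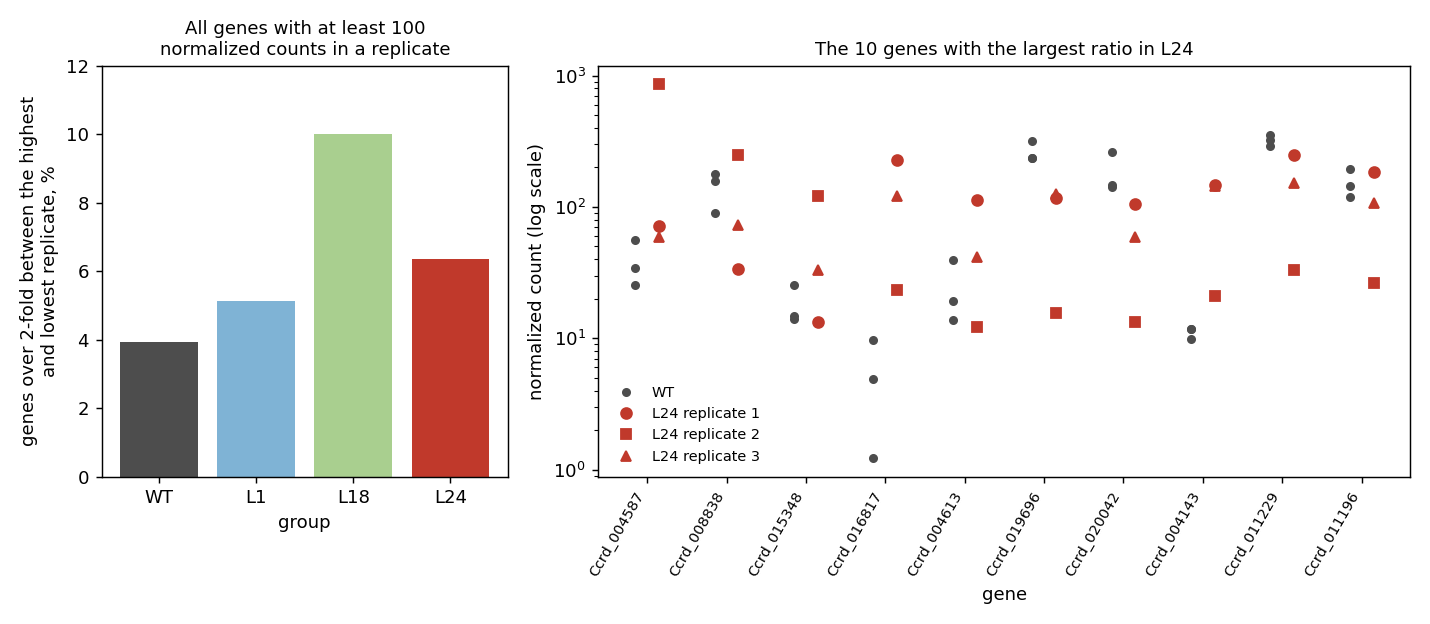
Left, share of genes that differed more than 2-fold between the highest and the lowest replicate of each group, in % of genes with at least 100 normalized counts in a replicate of that group, with 6.35% in L24 between 5.13% in L1 and 10.0% in L18. Right, normalized counts (log scale) of the 10 genes with the largest ratio in L24, with WT replicates in grey and L24 replicates as red circles (1), squares (2) and triangles (3), where the square is the highest in 3 genes and the lowest in 7.

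Some gene families had members mostly on one side between replicates 1 and 2, and others did not. Over genes of average log2 CPM of at least 0, all genes tested had a median difference of 0.00 on the log2 scale. WRKY factors were higher in replicate 1 in 8 of 16 genes, with a median of 0.00, and cytochrome P450 genes in 28 of 51, with a median of 0.05. The families that follow were picked for their medians. Expansins were higher in replicate 1 in 5 of 6 genes, with a median of 0.83, pectinesterases in 12 of 15, with a median of 0.53, and LEA_2 domain proteins in 9 of 9, with a median of 0.46. In contrast, all 11 kinesins and all 20 genes of microtubule-based movement were higher in replicate 2, with medians of -0.45 and -0.56. The 5 MYB genes listed as up were all higher in replicate 2 as well, with a median of -0.70. The reference genes ELF1a (Ccrd_012208) and ACT7-like (Ccrd_013113) were both higher in replicate 1, with 86458, 68076 and 70242 and 51185, 36425 and 39069 normalized counts in the L24 replicates. Against WT these 2 genes had log2 fold changes of -0.51 and -0.41, which did not pass the test (adjusted p = 0.0617 and 0.126). With the replicate block in L24 and WT alone they were -0.48 and -0.39 (adjusted p = 0.0133 and 0.0351). ELF1a also passed with all samples in the likelihood ratio test, the exact test and DESeq2 (adjusted p = 0.0192 to 0.0271). It passed without WT replicate 3 (-0.64, adjusted p = 0.0356) or L24 replicate 1 (-0.62, adjusted p = 0.0422), and both passed without the 4 libraries of lowest TMM factor (-0.42 and -0.39, adjusted p = 0.0291 and 0.0494). The low TMM factor of replicate 1 moved with these differences, and its part in them was not tested.

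Neighbouring genes shifted together along the order of their identifiers. In windows of 100 genes, each gene with 3 or more as its average log2 CPM, the median log2 difference of each L24 replicate from the WT mean was taken. Of 135 windows, 25 were lower and 9 higher by more than 0.2 in every L24 replicate, 25.2% of all, while no WT replicate differed from the other WT replicates by more than 0.161. Genes were called in 58.2% of cases in these windows and in 38.5% elsewhere. The windows were chosen on the same differences from WT, so the higher share follows from that choice. The lowest window ran from Ccrd_005688 to Ccrd_005887 over 21 scaffolds, with medians of -1.35, -0.99 and -1.35 in the L24 replicates, 86 genes called down and 3 up. The highest ran from Ccrd_000003 to Ccrd_000177, with 0.59, 0.57 and 0.51. Medians of L1 and L18 had the same sign in both, at -0.92 and -0.77 in the former and 0.66 and 0.61 in the latter.

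Lowered windows differed in how far the other lines were shifted. From Ccrd_009471 to Ccrd_009653 the L24 replicates had medians of -0.29, -0.57 and -0.51, beside -0.83 in L1 and -0.61 in L18. From Ccrd_009655 to Ccrd_009867 they had -0.33, -0.54 and -0.49, beside -0.91 and -0.52. In both windows L1 stood lower than every L24 replicate. The windows that follow were chosen because the other lines were shifted less or not at all, so larger counts against those lines follow from that choice. From Ccrd_014101 to Ccrd_014253 the medians were -0.57, -0.41 and -0.53 in the L24 replicates, beside -0.03 in L1 and -0.04 in L18. In the next window, to Ccrd_014424, they were -0.58, -0.35 and -0.56, beside -0.02 and 0.12. Of the 100 genes in each, 49 and 53 were lower in L24 than in the mean of L1 and L18, and 1 and 2 higher. Over all genes tested 11.9% were lower and 11.4% higher in that contrast. From Ccrd_007052 to Ccrd_007233 the medians were -0.41, -0.47 and -0.43, beside 0.14 in L1 and -0.02 in L18, and 47 of 100 genes were lower than in the other lines. From Ccrd_018610 to Ccrd_018834 they were -0.68, -0.51 and -0.62, beside -0.22 and -0.06, with 46 genes lower. The window from Ccrd_003534 to Ccrd_003703 was raised in L24 (0.23, 0.37 and 0.27) and not in L1 (-0.19) or L18 (0.10), and 36 of its genes were higher than in the other lines.

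One run differed most between the L24 replicates. The range between their medians was over 0.5 in each of its windows, and over 0.2 in 24 of all 135 windows. In the 4 windows from Ccrd_010762 to Ccrd_011414, which hold 534 tested genes on 31 scaffolds, the median difference from WT was 0.50 in replicate 1, -0.08 in replicate 2 and 0.28 in replicate 3, or 1.42, 0.948 and 1.21-fold. L1 and L18 had medians between -0.08 and 0.01 in each of the 4 windows. In 281 of 400 genes (70.2%) the order of the replicates was 1, 3, 2, beside 27.0% of genes elsewhere. Of 436 genes with at least 100 normalized counts in a replicate, 85 (19.5%) differed more than 2-fold, beside 5.94% elsewhere. The run was chosen for the range between its L24 replicates, so a shared order and a larger spread follow from that choice. Against WT, 161 of the 534 genes of the run rose and 45 fell, beside 19.3% and 20.7% of all genes tested. In the window just before, from Ccrd_010558 to Ccrd_010761, the replicates did not part, at -0.52, -0.65 and -0.58.

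**Figure D5:**
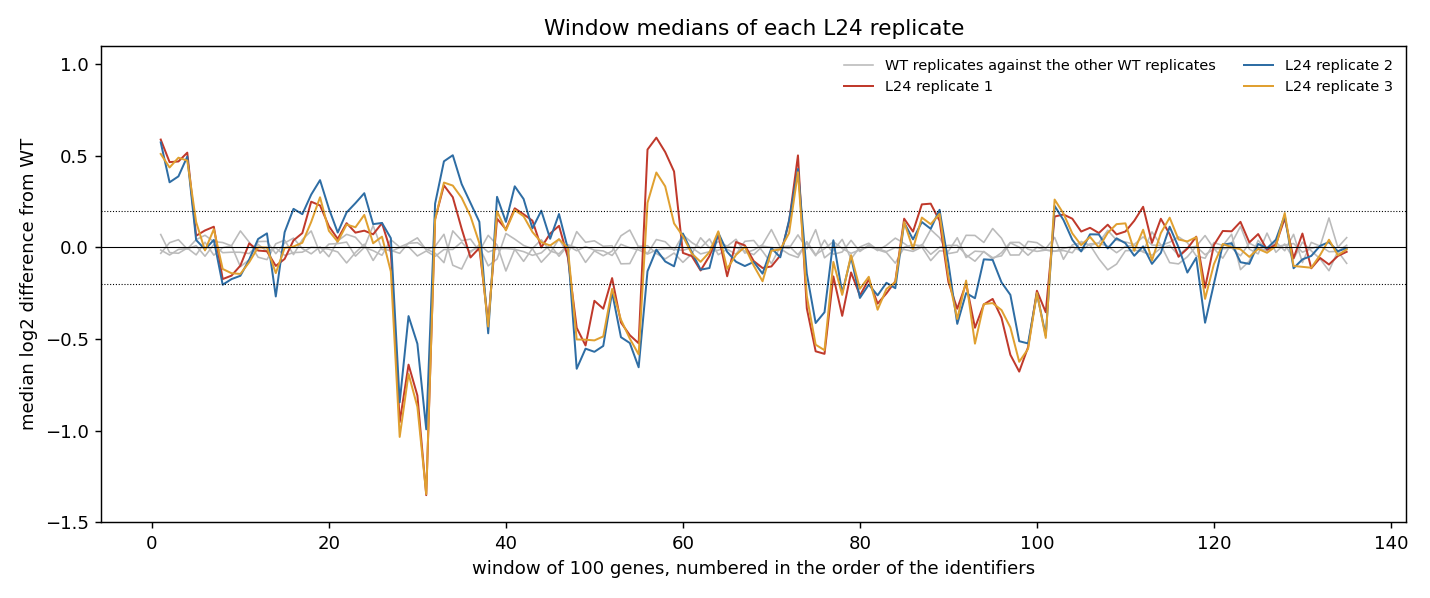
Median log2 difference from WT in 135 windows of 100 genes, numbered on the horizontal axis in the order of the identifiers, for L24 replicates 1 (red), 2 (blue) and 3 (yellow), with each WT replicate against the other WT replicates in grey and dotted lines at 0.2 above and below 0. All 3 L24 lines fall deeply at window 31, with replicate 2 less low than the others. They lie farthest apart in windows 56 to 59, where replicate 1 is up to 0.60 above WT and replicate 2 below it.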

How the data were processed

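RNA-seq libraries (TruSeq RNA, NovaSeq 6000) were made from 12 callus samples, of which the 3 of L24 and the 3 of WT are compared here. The authors trimmed reads with BBDuk, aligned them with STAR to CcrdV1 and deposited raw counts per gene and FPKM values, fragments scaled by exon length and library total. Strand is not given in the sources used here, so overlapping and antisense genes cannot be told apart, and near-identical copies may share reads.

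Raw counts were scaled by TMM over all genes and filtered at 10.5 normalized counts by a Jaccard index. One edgeR 4.0.16 quasi-likelihood model (R 4.3.3) was fitted to all 12 samples, with Benjamini-Hochberg adjustment over 20024 genes, and SE was taken from the F statistic. Alternatives used limma 3.58.1 on log2(FPKM + 1), DESeq2 1.42.0, other filters, scalings and tests, a running median of 101 neighbours, a replicate block and each replicate left out. Plots used Python 3.11.15 and matplotlib 3.10.9. On simulated counts for L24 against WT over 20024 genes, 56 of 100 genes changed by 1 on the log2 scale and 90 of 100 changed by 2 were called, with 12 unchanged genes. No other genes were changed there, whereas 39.9% were called in the data. The limit on the adjusted p is stricter with few changed genes, so these shares do not give the recovery in the data.

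Same-numbered WT and L24 samples, by the number in their titles, deviated together from their group means across genes (r = 0.457, 0.138 and 0.182), while WT replicate 3 correlated more with L24 replicate 2 (0.33). L24 replicate 1 correlated most with L18 replicate 2 (0.528). Same-numbered samples of L18 and L24 correlated at -0.103, -0.345 and 0.290, and those of L1 and L24 at -0.112, 0.121 and -0.195. The pairing of WT and L24 thus comes from the data and not from a stated batch or day, and it did not hold across all groups. Fits with the replicate block are given as alternatives only.

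Named genes were those the study names, the 10 largest rises and falls, up to 4 members per list with the highest counts, genes at the floor in L24 alone, the 10 farthest from the other lines in each direction, and the 10 with the largest spread between L24 replicates. The members and lists were chosen with earlier results of these data known. Columns beyond counts and FPKM, and the sequences of the genes, were not used here.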

Additional observations from a re-analysis of the deposited data

Results flagged for a closer look

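Of 25 genes that the study names, 6 differed between L24 and the mean of L1 and L18 in edgeR's quasi-likelihood test of that difference, with adjusted p-values over all genes tested. Lower in L24 were the CCoAOMT gene Ccrd_004659 at -2.23 ± 0.73 on the log2 scale (adjusted p = 0.0402), KRP7-like Ccrd_010818 at -2.95 ± 0.49 (adjusted p = 0.000761) and AtMYB5 Ccrd_007105 at -0.78 ± 0.18 (adjusted p = 0.00587). Higher in L24 were the MADS-TF Ccrd_019107 at 2.54 ± 0.71 (adjusted p = 0.019), AtMYB107 Ccrd_013908 at 1.98 ± 0.31 (adjusted p = 0.000525) and AUR3 Ccrd_006023 at 0.87 ± 0.19 (adjusted p = 0.00418). Against each line alone, KRP7-like (-2.18 and -3.71), AtMYB5 (-0.82 and -0.75) and AUR3 (0.85 and 0.88) passed against both L1 and L18 (adjusted p = 0.0123 and 0.000116, 0.00972 and 0.0118, 0.0138 and 0.00842). The others passed against 1 line only. CCoAOMT was at -1.36 against L1 (adjusted p = 0.311) and -3.10 against L18 (adjusted p = 0.0051), MADS-TF at -0.02 against L1 (adjusted p = 0.988) and 5.10 against L18 (adjusted p = 0.00225), and AtMYB107 at 3.75 against L1 (adjusted p = 4.75e-05) and 0.21 against L18 (adjusted p = 0.665). The study's NADPH dehydrogenase gene, Ccrd_024577, was low in both groups, with 0, 2.96 and 2.14 normalized counts in WT and 3.05, 12.2 and 9.53 in L24. Its rise against WT of 2.12 ± 0.85 did not pass the test (adjusted p = 0.0601), nor did its difference of -0.56 ± 0.57 from the mean of L1 and L18 (adjusted p = 0.529).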

How the results depend on the processing

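Across the alternatives the number of genes called in L24 against WT ran from 6302 to 9717, beside 7998. Leaving out 1 replicate gave 6302 to 8010 genes, of which 3007 to 3881 rose and 3236 to 4129 fell, and 458 to 482 list members beside 499. Leaving out 1 WT replicate gave 23.7% to 25.2% of windows shifted, and no such value was computed without an L24 replicate. Against the mean of L1 and L18 these fits gave 2885 to 4888 genes, beside 4671, with the lowest count without L24 replicate 3. Against the running median of neighbours 6910 genes were called, of which 5981 were shared with the same sign and 11 had the opposite sign. Ccrd_008838, which was not called, ran from -1.42 to 0.18 with 1 replicate left out, and was above 0 without L24 replicate 1. The cause was not tested.

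With the replicate block, 7688 genes were called in the fit to all samples and 9717 in the fit to L24 and WT alone, a fit added after seeing the data. Of the 7998 genes, 7922 were also called in the latter with the same sign. The block changed no call of a gene named here other than those given beside it. Ccrd_024577 was not part of that check. Depth limits genes near 3 counts per library, where a change was not detectable.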
